A study of Mus musculus with 2 samples.

Results

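The 9 genes described here encode enzymes on the route from squalene to cholesterol, and they were followed in the liver of apoE-KO mice after 1 week on normal chow or on the high-Chol diet. They were chosen by name as steps of this pathway (Sqle, Lss, Cyp51, Tm7sf2, Sc4mol, Nsdhl, Hsd17b7, Ebp and Dhcr7), out of 27962 gene names on the array. Sc4mol is the array's name for the gene now called Msmo1. All 9 were measured, by 18 probes, and all 9 passed the filter on dim probes, as did 16727 genes in all.

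All mice were males of the C57BL/6 strain that lacked apoE, the ligand by which remnant lipoproteins are taken up by the liver, and were 10 weeks old when the diets began. One group received normal chow, and the other group the same chow with 1.25% cholesterol (Chol) added. Each diet was studied in 3 independent experiments, and each experiment was read on a one-colour Agilent array, where Cy3-labeled cRNA made from liver RNA binds to 60-base probes. The loss of apoE is shared by both diets, so there is no comparison with mice that have the gene, and whether an experiment used 1 animal or several was not given in the sources used here. The p-values therefore measure the spread between these arrays.

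Chol synthesis starts from acetyl-CoA, passes through mevalonate, and reaches squalene, the last intermediate without a ring. Sqle and Lss turn squalene into lanosterol, the first sterol, and the enzymes after them remove its methyl groups, move its double bonds and reduce them. The genes of the whole route are classical targets of SREBP-2, a transcription factor held in the endoplasmic reticulum by Scap and Insig proteins when sterols are abundant, and the liver is a main site of this synthesis.

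Values below are the log2 of the background-subtracted signal of a spot relative to the 75th percentile of its array, so a value of 0 lies at that percentile and a difference of 1 is a 2-fold change. Where a gene had several probes, the probe with the highest mean stood for it. Probes differ in how brightly they bind, and the level of one gene is therefore not set against that of another. The diets were compared with limma over all 16727 genes, adjusting the p-values by the method of Benjamini and Hochberg (threshold 0.05), and every adjusted p in the text is from that fit unless another is named.

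The 3 normal chow arrays and high-Chol array 1 lay on slide 1, and high-Chol arrays 2 and 3 lay on slide 2. The slides were read with versions 9.5 and 9.1 of the scanner software, and their 75th percentiles were 271 to 373 and 762 to 799 units of intensity. Between 50.5 and 67.2% of spots were well above background, and no spot of a member was saturated. Over all 16727 genes the median log2 difference between diets was -0.02, and 52.2% of genes had a lower mean on the high-Chol diet. Array numbers are names, and do not pair the diets.

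All 9 genes had a lower mean signal on the high-Chol diet, with a median log2 difference of -1.61, or 3.04-fold lower. By limma 5 of the 9 fell (Sqle, Sc4mol, Cyp51, Nsdhl and Hsd17b7), beside 38 of all 16727 genes, or 0.227%. The other 4 (Lss, Dhcr7, Tm7sf2 and Ebp) had unadjusted p-values under 0.05, as 8.83% of all genes did in the lower direction, and did not pass after adjustment. The p of Tm7sf2 rests on 1 high-Chol array, assumed to vary like the others. Of the 8 genes with a value on every array, 7 had every high-Chol array below every normal chow array, which was so for 14.0% of the 16435 genes with 6 values. Of all genes ordered by their log2 difference, 6 of the 9 lay among the lowest 100. The number that passed depended on single arrays. It was 1 (Sqle) without normal chow array 1, 0 without normal chow array 2 or 3 and without high-Chol array 2 or 3 (with 8 or 9 at an unadjusted p under 0.05 by limma), and 8, all but Tm7sf2, which then had no value, without high-Chol array 1, where 785 of all 17771 genes, or 4.42%, were called lower. With slide as a block, 0 of the 9 passed and 7 had an unadjusted p under 0.05 by limma, with a median log2 difference of -1.15. For the fits without an array or with the block, the share of all genes at that unadjusted p was not counted. The 8.83% belongs to the reported fit.

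**Figure D1:**
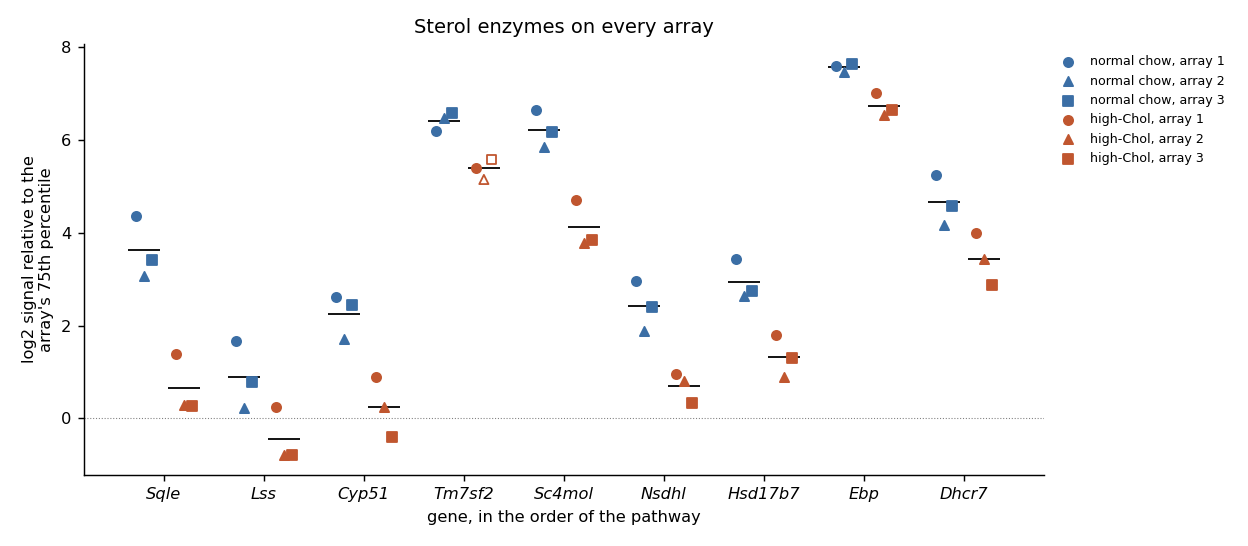
Signal of the 9 genes on each array, as log2 relative to the array's 75th percentile, in the order of the pathway. Filled points are arrays, black lines are the means of a diet, and the open symbols are the spots of Tm7sf2 marked as outliers on slide 2, which did not enter its mean. The high-Chol points lie below the normal chow points in every gene but Lss, where they meet near 0.23 to 0.25.

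The pathway opens with Sqle, squalene epoxidase, which adds an oxygen to squalene and is a point of control of the pathway. Its log2 signal was 4.36, 3.07 and 3.42 on normal chow arrays 1, 2 and 3, against 1.39, 0.28 and 0.26 on high-Chol arrays 1, 2 and 3. The diets did not overlap, and the gap between them, 1.68, was the widest of the 9 genes. The log2 difference was -2.97 (SE 0.42, adjusted p = 0.0177 from limma), which is 7.85-fold lower. Among all genes tested Sqle was the 6th from the lowest difference.

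Lss, lanosterol synthase, closes the ring system and makes lanosterol. Its signal was 1.67, 0.23 and 0.77 on normal chow, against 0.25, -0.79 and -0.79 on the high-Chol diet. High-Chol array 1 lay just above normal chow array 2, so the diets overlapped, whereas the arrays of slide 2 lay below every normal chow array. The log2 difference of -1.34 (SE 0.43, 95% interval -2.35 to -0.32) did not pass the test (adjusted p = 0.163 from limma), and an exact two-sided permutation test gave p = 0.2, where 0.1 is the smallest that 3 against 3 arrays allow.

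Cyp51 is the cytochrome P450 that takes the first methyl group off lanosterol. It read 2.62, 1.71 and 2.45 on normal chow, against 0.90, 0.24 and -0.40 on the high-Chol diet, with no overlap. Its log2 difference was -2.01 (SE 0.38, adjusted p = 0.0415 from limma), or 4.03-fold lower.

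Tm7sf2 is a sterol reductase that acts on the product of Cyp51, a step that Lbr, the lamin B receptor, can also carry out. Its signal was 6.19, 6.46 and 6.58 on normal chow against 5.39 on high-Chol array 1. On both arrays of slide 2 its spot was marked as an outlier by the scanner software and left out, so the difference of -1.02 (SE 0.26, adjusted p = 0.140 from limma) rests on 1 high-Chol array. When the marked spots were kept, their values were 5.14 and 5.57, all 3 high-Chol arrays lay below normal chow, and the difference was -1.04 with an adjusted p of 0.0361 from limma.

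Sc4mol, Nsdhl and Hsd17b7 form the complex that strips the remaining pair of methyl groups from the sterol ring. Sc4mol, the methyl oxidase that starts each round, read 6.64, 5.84 and 6.17 on normal chow, against 4.71, 3.79 and 3.85 on the high-Chol diet. Its diets lay 1.13 apart at their nearest, and the log2 difference was -2.10 (SE 0.31, adjusted p = 0.0199 from limma), or 4.30-fold lower. Nsdhl, the dehydrogenase that releases the oxidized carbon, read 2.96, 1.88 and 2.40 on normal chow, against 0.96, 0.81 and 0.33 on the high-Chol diet. It had the smallest spread among the high-Chol arrays of the 5 genes that fell (SD 0.33, n = 3), and its difference was -1.71 (SE 0.30, adjusted p = 0.0353 from limma). Hsd17b7, the reductase that ends each round, read 3.43, 2.63 and 2.75 on normal chow, against 1.79, 0.90 and 1.30 on the high-Chol diet. The diets did not overlap, and the difference was -1.61 (SE 0.30, adjusted p = 0.0415 from limma). All 3 genes of the complex thus fell, by 3.04 to 4.30-fold.

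Ebp, the isomerase that shifts a double bond in the second ring, read 7.59, 7.46 and 7.64 on normal chow, against 7.01, 6.52 and 6.63 on the high-Chol diet. Its normal chow arrays were the tightest of the 9 genes (SD 0.09, n = 3), and the diets did not overlap. The difference, the smallest of the 9 in size, was -0.84 (SE 0.18, 95% interval -1.26 to -0.42), or 1.79-fold lower, and did not pass (adjusted p = 0.0604 from limma). Dhcr7, the reductase that makes Chol from its immediate precursor, read 5.23, 4.16 and 4.58 on normal chow, against 3.99, 3.44 and 2.88 on the high-Chol diet. The highest high-Chol array lay 0.16 below the lowest normal chow array, and the difference was -1.22 (SE 0.36, 95% interval -2.07 to -0.37, adjusted p = 0.140 from limma).

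**Figure D2:**
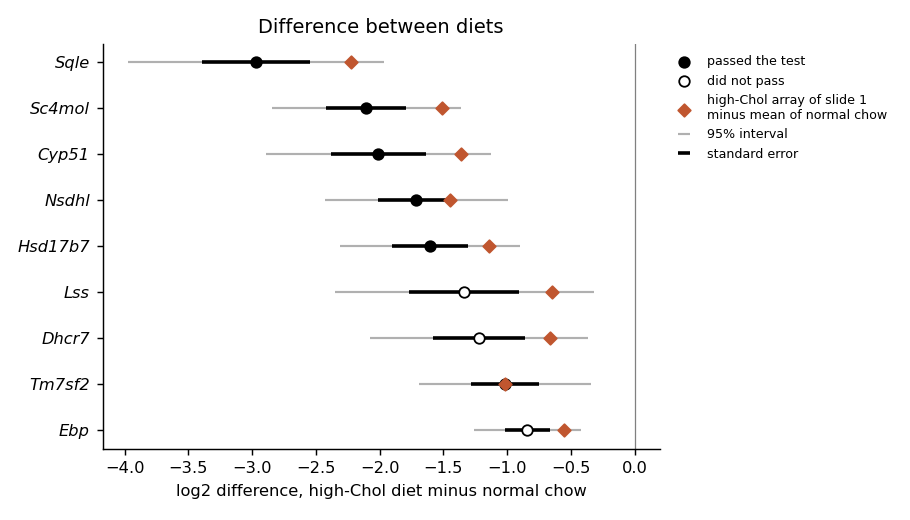
Log2 difference of each gene, high-Chol diet minus normal chow, with its standard error (thick bars) and 95% interval (thin bars) from limma, and the value of the high-Chol array of slide 1 alone (diamonds). Filled circles passed the test. Differences run from -2.97 for Sqle to -0.84 for Ebp, and in all but Tm7sf2, whose difference rests on that array, the diamond lies nearer to 0.

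Ordered by the size of the difference the genes ran Sqle, Sc4mol, Cyp51, Nsdhl, Hsd17b7, Lss, Dhcr7, Tm7sf2 and Ebp. Each neighbouring pair was compared by the difference between their values on each array, with an exact two-sided permutation test over the arrays, for 8 pairs. Sqle and Sc4mol differed by -0.87 (SE 0.18, exact p = 0.1, adjusted p = 0.8). No pair could go below 0.1, or below 0.25 for the pairs with Tm7sf2, which rest on 4 arrays. Dhcr7 and Tm7sf2 gave an exact p of 1 and Tm7sf2 and Ebp one of 0.25, the other 5 pairs gave 0.3 to 0.8. At the threshold of 0.05 this test could not tell any neighbours apart. Across 18 alternative settings with an adjusted p, Sqle passed in 10, Sc4mol in 9, Nsdhl and Hsd17b7 in 8 each and Cyp51 in 7. Ebp passed in 4 of the 18, Lss and Dhcr7 in 2 each, and Tm7sf2 in 1 of the 16 that tested it. Over all alternatives run, the difference of Sqle lay between -3.35 and -2.22, that of Sc4mol between -2.40 and -1.51, and that of Ebp between -1.09 and -0.51. The ends of the order, Sqle and Ebp, differed by -2.13 (SE 0.43), a pair taken for being the ends and so given with no test.

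Within a diet, the arrays held much the same order from gene to gene. Of the 8 genes with a value on every array, normal chow array 1 was the highest of its diet in 7 and normal chow array 2 the lowest in 8. High-Chol array 1 was the highest of its diet in all 8, and arrays 2 and 3 were each the lowest in 4. Averaged over the 8 genes, the deviation from the normal chow mean was 0.49, -0.45 and -0.05 on the arrays of normal chow, against -1.19, -1.92 and -2.06 on those of the high-Chol diet. The high-Chol array that shared a slide and a software version with normal chow was thus the one nearest to it. On that array 8 of the 9 genes, all but Lss, were below every normal chow array. The share of all genes below normal chow on that single array was not counted, and the 14.0% given above is for 3 arrays. The differences from the normal chow mean on high-Chol array 1 were -2.22 for Sqle, -1.51 for Sc4mol, -1.45 for Nsdhl, -1.36 for Cyp51 and -1.15 for Hsd17b7. Those of the genes that did not pass were -1.02 for Tm7sf2, -0.66 for Dhcr7, -0.65 for Lss and -0.55 for Ebp. With slide as a block the fit gave those same values, and the lowest adjusted p of the 9 was 0.188 from limma. The part of the slide in the lower values on slide 2 was not tested.

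Of the 18 probes, 17 stood well above background on each of the 6 arrays. With values on all 6 arrays, 15 of those 17 had no overlap between the diets, as had 14.0% of genes with 6 values in the lower direction. The share over all probes was not counted. All 17 had a lower mean on the high-Chol diet, and 5 genes had several such probes. The remaining probe, for a Nsdhl transcript, was not well above background on any array. In Cyp51 the probe differences were -2.01, -1.99 and -1.45, in Nsdhl -1.71, -1.89 and -1.41, in Hsd17b7 -1.61 and -1.10, and in Dhcr7 -1.22 and -1.51. The probe with an overlap was the one that stands for Lss, and the probe of Tm7sf2 had 4 values.

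**Figure D3:**
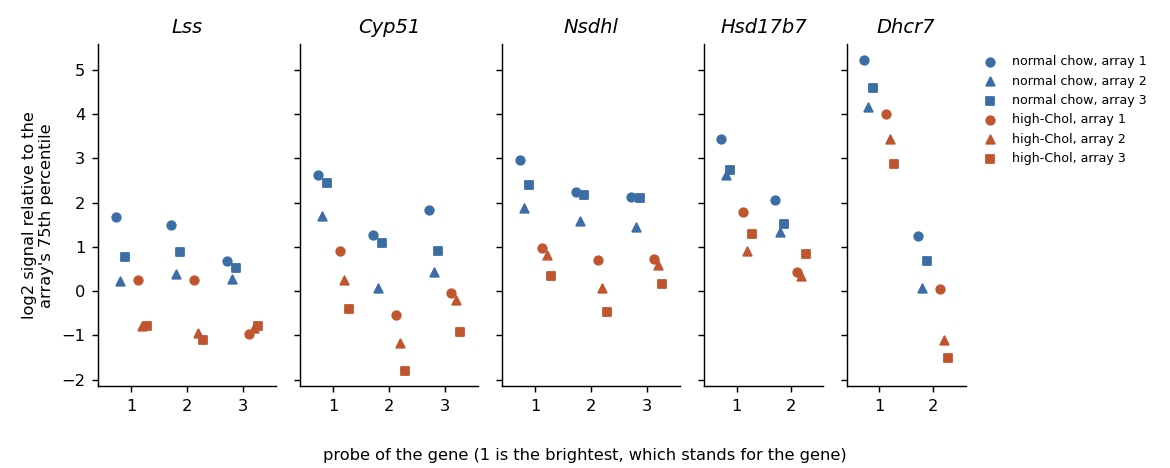
Log2 signal relative to the array's 75th percentile on each array for the genes with several probes well above background, 1 panel a gene and 1 column of points a probe. Probe 1 stands for the gene in the text. In each of the 13 columns but the first of Lss, the high-Chol points lie below the normal chow points.

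Several genes had probes with unequal calls when every probe was tested by itself by limma. In Cyp51 the adjusted p-values were 0.0407, 0.0570 and 0.117, and in Hsd17b7 0.0415 and 0.0686, while the 3 probes of Nsdhl all passed. In Lss a probe other than the one that stands for the gene passed. The first 30 bases of its probes are shown because they read separate places of the gene, with mm7 positions from the array annotation, which does not name exons, and with lower case used throughout.
Lss probe 1, chr10:76206315-76206374, plus strand: tttgaatcatgtgaacagcggcggtatgtg
Lss probe 2, chr10:76208898-76208957, plus strand: cgcttaaagttcttggactagcttcagtga
Lss probe 3, chr10:76212419-76212478, plus strand: gctgatcatacacagccaatcacgcgcaca
Probe 1 stands for the gene above. Probe 2, further along the gene, read 1.5, 0.38 and 0.88 on normal chow, against 0.26, -0.95 and -1.10 on the high-Chol diet, and its difference was -1.52. Probe 3, designed on another transcript record, read 0.68, 0.27 and 0.53 on normal chow, against -0.97, -0.83 and -0.78 on the high-Chol diet. There high-Chol array 1 did not stand above the arrays of slide 2, and the difference was -1.35. With every probe tested by itself by limma, the adjusted p was 0.167 for probe 1, 0.127 for probe 2 and 0.0120 for probe 3.

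Each value of a gene that fell is the brightness of a single probe. The first 30 of the 60 bases are given for these 5 probes, with mm7 positions of the whole probe from the array annotation.
Sqle probe, chr15:59397289-59397348, plus strand: cccttttcagtagcggtgctgtactgtaca
Sc4mol probe, chr8:63138214-63138273, minus strand: aaatgtgatttttgtccgatccttctggtt
Cyp51 probe, chr5:4089242-4089301, minus strand: cgttgtgttggagaaaattttgcctatgtt
Nsdhl probe, chrX:68341842-68343023, plus strand: gcaaaatgaagttcatgattggaaatgggg
Hsd17b7 probe, chr1:169928936-169928995, minus strand: gtattcaagagaaaggtgtgaatgtgtttg
The Nsdhl probe spans 1182 bases of the genome for its 60 bases, and so reads across a gap between 2 aligned blocks of the gene. One other probe of Cyp51 spans 407 bases.

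Of the steps from acetyl-CoA to squalene, 8 genes were set beside these as a list (Acat2, Hmgcs1, Mvk, Pmvk, Mvd, Idi1, Fdps and Fdft1). In that list 7 of 8 had a lower mean on the high-Chol diet, with a median log2 difference of -1.34 (-0.85 with slide as a block). Of these 8 genes 0 passed by limma, where 0.227% of all genes were called lower, with 5 lower at an unadjusted p under 0.05, as 8.83% of all genes were (4 when the methods' t-test was used). Fdft1, squalene synthase, makes the substrate of Sqle, and its difference was -1.54 (adjusted p = 0.0615 from limma). Idi1 and Fdps, which make and join the isoprene units, had differences of -1.79 each with adjusted p-values of 0.0589 and 0.125 from limma. Acat2, the thiolase of the first step, had a difference of 0.09 with overlapping diets.

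Of other enzymes among the later sterol steps, Sc5d had a difference of -0.76 and Lbr of -0.19, and neither passed by limma (adjusted p = 0.195 and 0.609), where 1 of them, Sc5d, had an unadjusted p under 0.05, as 8.83% of all genes did in the lower direction (0 when the methods' t-test was used). Lbr read -0.21, 0.26 and 0.28 on normal chow against -0.30, 0.20 and -0.13 on the high-Chol diet, so its diets overlapped, while those of Tm7sf2, which catalyzes the same step, did not on the arrays that measured it. The difference between Tm7sf2 and Lbr was not tested.

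Among 7 genes of sterol sensing and transport, 1 fell by limma, beside 0.227% of all genes, and 4 had a lower mean, with a median of -0.53 (-0.18 with slide as a block). It was Stard4, a carrier of Chol between membranes, with a difference of -1.12 (SE 0.22, adjusted p = 0.0466). It did not pass when slide was fitted as a block (difference -0.89, adjusted p = 0.437 from limma). Srebf2, which encodes SREBP-2, had a difference of -0.59 (adjusted p = 0.194), and Insig1, which retains it, of -0.83 (adjusted p = 0.174), each from limma. Insig2 read 4.76, 3.37 and 3.23 on normal chow against 5.28, 5.31 and 4.18 on the high-Chol diet, and its difference was 1.14 with overlapping diets (adjusted p = 0.236 from limma).

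For LXR, the receptor of oxidized sterols (Nr1h3 and Nr1h2), and 5 of its targets, 5 of 7 genes had a higher mean, with a median of 0.23. One rose by limma, where 2.69% of all genes tested were called higher. It was Abcg1, a Chol exporter, with 0.83, 0.93 and 0.97 on normal chow against 2.08, 2.25 and 2.23 on the high-Chol diet (difference 1.28, SE 0.14, adjusted p = 0.00894). With slide as a block its difference was 1.17 and did not pass (adjusted p = 0.0954 from limma).

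**Figure D4:**
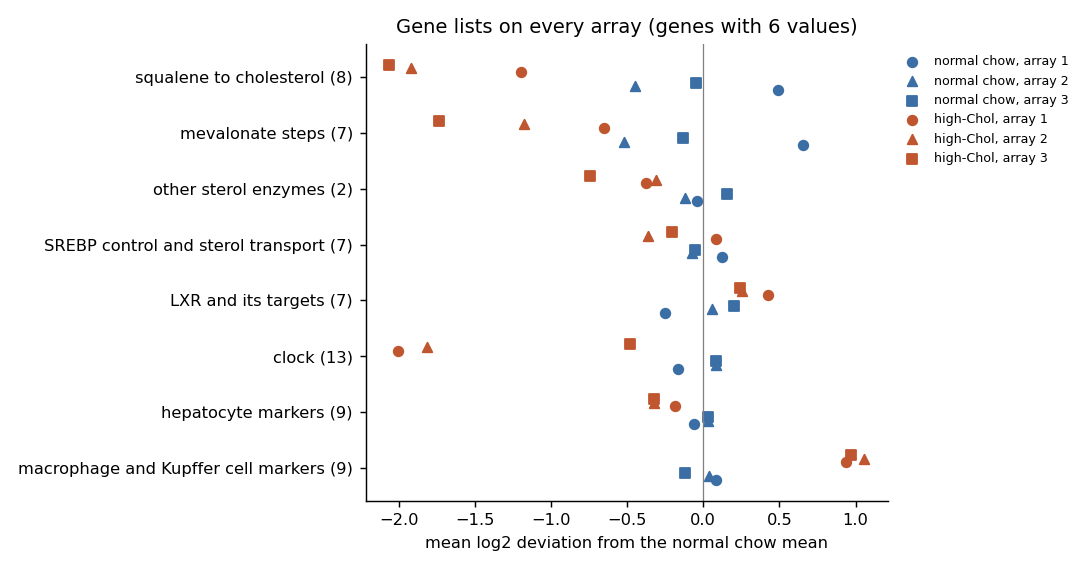
Mean log2 deviation from the normal chow mean on each array for the genes from squalene to cholesterol and for other gene lists, with the number of genes that had values on all 6 arrays in parentheses. The genes from squalene to cholesterol lay at -1.19 on high-Chol array 1 and at -1.92 and -2.06 on arrays 2 and 3, while the clock genes lay at -2.0, -1.81 and -0.48, with Ciart and Per3, which are dim on some high-Chol arrays, included.

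The samples hold bulk liver RNA, so fewer hepatocytes and less of a transcript in each hepatocyte cannot be told apart. Hepatocyte markers measured on the arrays (9 of a list of 10) had a median difference of -0.30, 8 of 9 were lower, and 0 passed by limma, where 3 had an unadjusted p under 0.05, as 21.2% of all genes did in either direction (4 when the methods' t-test was used). Their summed linear signal, in units of the array's 75th percentile, was 2921 to 3040 on normal chow against 2141 to 2555 on the high-Chol diet, and Alb, which defines these cells, read 9.44 to 9.64 and 9.05 to 9.37. All 10 markers of macrophages and Kupffer cells had a higher mean on the high-Chol diet, with a median of 0.77 and 3 that rose by limma (Cd68, Marco and Lyz2), where 2.69% of all genes were called higher. With slide as a block none of the 3 passed (adjusted p = 0.0830, 0.250 and 0.106 from limma), with differences of 1.66, 1.99 and 1.32. The summed signal of the 9 with 6 values was 98.2 to 122 on normal chow against 260 to 340 on the high-Chol diet. The median of the genes from squalene to cholesterol, -1.61, lay below that of the hepatocyte markers, and their lowest gene lay at -2.97 against -0.57 in that list. The part of the cell mixture in the result was not tested.

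Clock genes also had lower means on the high-Chol diet for the most part. Of 14 listed, 13 were tested, and 11 of these had a lower mean, with a median difference of -1.37. By limma 0 passed, with 8 lower and 2 higher at an unadjusted p under 0.05, beside 8.83 and 12.3% of all genes (3 in all when the methods' t-test was used). Ciart and Per3 were well above background on 4 and 5 arrays and passed the filter through normal chow. Without them the median of the other 11 was -0.97, and their mean deviation was -1.41, -1.40 and -0.48 on high-Chol arrays 1, 2 and 3. Dbp, an output gene of the clock, read 6.57, 6.49 and 6.80 on normal chow, against 0.86, 0.86 and 5.64 on high-Chol arrays 1, 2 and 3. The summed signal of the 13 was 121 to 151 on normal chow against 14.2, 15.1 and 71.6 on the high-Chol arrays. Averaged over the 8 sterol genes with a value on every array, the deviation was -1.19, -1.92 and -2.06 on high-Chol arrays 1, 2 and 3. The part of the clock genes in the result was not tested.

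The genes whose signal ran most like the mean of the 8 sterol genes with 6 values were sought over the 6 arrays. The search took in 14035 other genes well above background on every array. The 10 with the highest Pearson r were Itfg2 (0.998), Tom1l2 (0.997), 4930579C12Rik, Fgfr1, Cryga, B930037P14Rik, Fdft1 (0.991), 1190003M12Rik, Mmab (0.990) and Hsp90b1. With 6 arrays in 2 diets this is a description with no test, since any gene that is lower on the high-Chol diet tends to score high. The r does not give the size of a difference, which was -0.25 for Itfg2 and -1.54 for Fdft1. None of the 10 passed by limma (adjusted p from 0.0615 to 0.335). Fdft1, the step just before Sqle, was the 7th and Idi1 the 26th. Other genes of the route ranked lower (Fdps 122, Mvd 151 and Mvk 234), with Pmvk at 2820 and Acat2 at 6268.

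Promoters of 8 of the 9 genes, all but Sqle, were read from RefSeq (GRCm38.p6). Each was the 250 bases before and the first 50 after a start of the gene. They were searched on both strands for TCACNCCAC, a form of the sterol regulatory element, for CCAAT, the box bound by NF-Y, for GGGCGG, the box bound by Sp1, and for CACGTG, the E-box. A further form of the sterol element, TCACCTCA, was added after the promoters had been seen. Matches of these motifs did not overlap each other in these promoters. The bases before the start are shown for the 4 genes that fell and have an entry, and for Ebp, whose difference was the smallest, with every match in capitals.
Cyp51 promoter, chr5:4104698-4104947, minus strand: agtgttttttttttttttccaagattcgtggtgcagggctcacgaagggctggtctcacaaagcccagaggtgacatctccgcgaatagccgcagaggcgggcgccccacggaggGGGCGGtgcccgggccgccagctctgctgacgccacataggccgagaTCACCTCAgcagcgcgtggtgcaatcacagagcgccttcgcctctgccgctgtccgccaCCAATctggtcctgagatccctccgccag
Sc4mol promoter, chr8:64733579-64733828, minus strand: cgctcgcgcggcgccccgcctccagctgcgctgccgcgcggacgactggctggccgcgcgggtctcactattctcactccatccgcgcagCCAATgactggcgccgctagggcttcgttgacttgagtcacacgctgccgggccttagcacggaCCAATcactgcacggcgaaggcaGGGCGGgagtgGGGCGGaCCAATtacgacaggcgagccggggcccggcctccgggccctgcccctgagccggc
Nsdhl promoter, chrX:72918271-72918520, plus strand: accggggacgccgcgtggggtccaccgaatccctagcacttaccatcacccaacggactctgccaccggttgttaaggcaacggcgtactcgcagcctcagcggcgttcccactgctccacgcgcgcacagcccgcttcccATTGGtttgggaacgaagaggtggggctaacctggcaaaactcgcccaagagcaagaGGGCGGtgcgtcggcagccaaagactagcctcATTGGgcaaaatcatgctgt
Hsd17b7 promoter, chr1:169969206-169969455, minus strand: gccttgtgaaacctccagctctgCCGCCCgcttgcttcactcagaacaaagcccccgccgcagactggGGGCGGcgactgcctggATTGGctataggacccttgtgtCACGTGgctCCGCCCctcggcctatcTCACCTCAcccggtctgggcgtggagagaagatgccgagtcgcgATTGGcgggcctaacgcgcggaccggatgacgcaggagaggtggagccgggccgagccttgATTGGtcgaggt
Ebp promoter, chrX:8193513-8193762, minus strand: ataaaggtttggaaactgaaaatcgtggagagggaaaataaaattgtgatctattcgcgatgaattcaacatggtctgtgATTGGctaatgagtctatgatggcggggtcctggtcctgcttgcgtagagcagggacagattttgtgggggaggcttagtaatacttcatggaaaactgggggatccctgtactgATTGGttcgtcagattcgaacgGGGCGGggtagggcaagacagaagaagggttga
Each of the 8 genes had CCAAT in at least 1 promoter, against 41.1% of all 27025 genes in the table, and each had GGGCGG, against 38.2%. On the gene's own strand alone, 4 of the 8 had CCAAT, against 23.7% of all genes, and all 8 had GGGCGG, against 25.6%. Of 6 genes before squalene with an entry, 5 had CCAAT and 5 GGGCGG on either strand. Counted by promoter, 37.4% of all 32851 held CCAAT and 35.7% GGGCGG. TCACNCCAC was found in 0 of the 8 genes, in 1 of the 6 genes before squalene (Hmgcs1) and in 1.44% of all genes (1.24% of promoters). TCACCTCA was found in Cyp51, 88 bases before the start, and in Hsd17b7, 117 bases before it, and in 1.37% of all genes (1.17% of promoters). CACGTG was found in Hsd17b7 and in the second start of Dhcr7, and in 8.09% of all genes (7.15% of promoters). Neither of these was found in the 6 genes before squalene. In Sc4mol 3 copies of CCAAT lay 160, 96 and 55 bases before the start, and in Hsd17b7 3 copies lay 165, 73 and 12 bases before it on the other strand. The bases before the start held 61.6 to 72.0% G and C in the 4 genes that fell and have an entry. In the genes that did not pass the share was 73.6% in Lss, 63.2% in Tm7sf2, 44.8 to 65.2% at the starts of Dhcr7 and 47.2% in Ebp. The median over all promoters was 52.4%. A match describes the letters alone, and no match says only that the letters are not in this window.

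**Figure D5:**
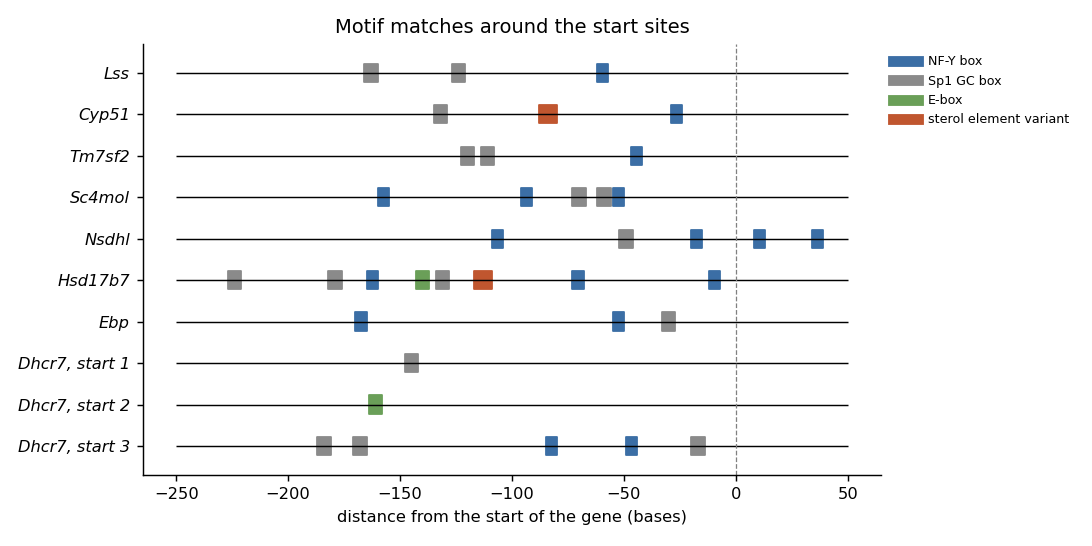
Positions of the motif matches from 250 bases before to 50 after the start of each gene, with 1 line a start site and the start at 0 on the axis. Dhcr7 has 3 starts in the table, of which the third holds its CCAAT matches. CCAAT (NF-Y box) and GGGCGG (Sp1 GC box) matches are found in every gene, and TCACCTCA (sterol element variant) in Cyp51 and Hsd17b7.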

How the data were processed

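Liver RNA was measured on 6 arrays, 3 per diet, with the groups taken from the labels of the samples. The authors deposited scanner output, in which the spot intensity had been background-subtracted by Agilent Feature Extraction (9.5 for slide 1, 9.1 for slide 2; the submitters' processing notes name 9.1). They deposited in addition 1 log2 value per probe and diet, for 23458 probes, made from the 3 arrays in GeneSpring GX with settings not given in the sources used here. The scale was log2, and its differences had a slope of 0.999 on those used here and an offset of -0.24. Its columns had medians of -0.0019 and -0.27.

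The log2 of each spot was taken relative to its array's 75th percentile over 43379 spots that were not controls. Outlier-marked spots, 75 to 196 on an array, did not enter, and saturated spots did. A probe had to stand well above background on every array of 1 diet or both, and the brightest stood for its gene. The number of arrays limits the precision.

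The diets were compared with limma 3.58.1 (lmFit and eBayes) in R 4.3.3, with no covariate, and the step was tested on simulated data. The alternatives were a normexp background (offset 50), median scaling, quantile normalization, no filter and a filter on all arrays, every probe or the mean of the probes, omission of each array, slide as a block, array weights, a trended and robust prior, the methods' t-test and the authors' values. Marked spots kept, slide 1 alone, the motif TCACCTCA and the clock list without Ciart and Per3 were added after seeing the data. Files were read with the data.table package (1.17.8) and pandas 2.3.3, and plots drawn with matplotlib 3.10.9.

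The genes, lists and tests were chosen with earlier results of these data known. Named are all members with their probes, genes of the lists and the 10 genes most like the members. Promoters were found for 8 of the 9 genes. Some genes of the lists are not reported here and were left out of the lists' counts. Of the lists, Npas2 and Cd8a did not pass the filter and Serpina1a was not found by name.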

Additional observations from a re-analysis of the deposited data

How the results depend on the processing

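All 9 genes had a lower mean under every alternative that gave them a value (8 without high-Chol array 1, where Tm7sf2 had none). Their median difference, -1.61 as reported, ran from -1.85 with the authors' values to -1.15 with slide as a block. The number passing the test, 5 as reported, was 0 with a normexp background, where limma called 0 of all genes, 0 with no filter on dim probes, 0 with slide as a block, 0 by the methods' t-test after Benjamini-Hochberg adjustment, 2 (Sqle and Sc4mol) with quantile normalization and 8 with array weights. In the settings with 0, between 5 and 9 of the genes had an unadjusted p under 0.05, and the share of all genes that did was not counted there. With each array left out in turn the number passing ran from 0 to 8. In the 7 other settings it was within 1.5 times the reported number, from 4, when the probes of a gene were averaged, to 6. These include the methods' t-test without adjustment, an easier threshold, with 6, where 8.29% of all genes were called lower. The cause of these changes was not tested. Of neighbouring genes, 1 pair had an exact p of 0.1, the smallest that 6 arrays allow, and 0 did with the normexp background. Left-out arrays, the block, the weights, the priors and the t-test give no value for that count. Median scaling moved the median of all genes to -0.26 and that of the 9 to -1.84, so their distance was -1.59, against -1.58 on the reported scale. Over all genes 38 were lower and 450 higher. These counts were 0 and 0 with normexp, 73 and 331 with median scaling, 0 and 26 with no filter, 61 and 564 probe by probe, 0 and 11 with the block, 995 and 2201 with weights, 89 and 450 with the trended prior, 1387 and 1402 by the unadjusted t-test and 1 and 4 by the adjusted one, and ran from 0 to 785 lower and 42 to 3158 higher with an array left out. No paired analysis was possible because the arrays carry no replicate number from the labels.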

Other observations

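Lists of other liver cells were measured on the same arrays. Of 5 endothelial markers, 4 had a higher mean on the high-Chol diet, with a median log2 difference of 0.27 and 0 that passed by limma, where 1 had an unadjusted p under 0.05, beside 21.2% of all genes. Cdh5, a junction protein of these cells, had the largest difference of that list, 0.94 (SE 0.21, adjusted p = 0.0719 from limma). For stellate cells and cholangiocytes the median of 5 markers was -0.16, with a range from -0.47 to 0.44, and it was 0.19 with slide as a block. For lymphocytes 5 of 6 markers were tested, with a median of 0.77, or -0.02 with slide as a block, and differences from -0.86 to 1.25. The ends of that range, Cd79a and Cd3d, were well above background on 5 arrays each, and so passed the filter through 1 diet alone. Cd3e, a subunit of the T cell receptor complex, read -1.73, -2.07 and -1.95 on normal chow, against -2.26 on high-Chol array 1, and -0.61 and -0.56 on the arrays of slide 2. That marker was thus highest on slide 2, the slide on which the sterol genes were lowest, and was chosen for mention after its values were seen.

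Hmgcs1, which encodes a synthase of an early step of the route, lacked a value on high-Chol array 3, where its spot was left out. It read 6.91, 4.65 and 5.23 on normal chow against 4.87 and 4.43 on the high-Chol arrays, so its diets overlapped.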
